A study of Mus musculus with 18 samples.

Results

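The genes described here are 10 core members of the transforming growth factor beta (TGF-beta) pathway, read in mouse aorta-gonad-mesonephros (AGM) tissue, the embryonic region where blood stem cells first form next to the aorta. They were taken by symbol: the ligands Tgfb1, Tgfb2 and Tgfb3, the receptors Tgfbr1, Tgfbr2 and Tgfbr3, the signal carriers Smad2, Smad3 and Smad4, and the matrix gene Tgfbi. All 10 symbols were found in each of the 18 count tables, among 21881 symbols in all, and all 10 passed the filter on low counts. Cells were sorted at embryonic day 11 (E11) from the C57BL6 BRE-GFP reporter strain, in which a BMP response element drives green fluorescent protein. The same strain and stage were used for every group. HPSC libraries came from CD31+ Kit+ cells, enriched for hematopoietic stem and progenitor cells. MC libraries came from CD31- Kit- cells, enriched for mesenchymal cells, and EC libraries from CD31+ Kit- cells, enriched for endothelial cells. Each population was sorted from AGM explants cultured with BMP and Hedgehog factors plus cyclopamine, a plant alkaloid that blocks the Hedgehog transducer Smoothened, from explants without cyclopamine, and from fresh AGM. A second gate split each of these into cells with reporter fluorescence (BRE-GFP positive) and without it (BRE-GFP negative). This gave 3 populations, 3 cultures and 2 fractions with 1 library per combination, so no group has a repeat library, and the number of embryos behind a library is not given in the sources used here.

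TGF-beta ligands are secreted in a latent form and stored in the matrix. An active ligand binds TGFBR2, which recruits and phosphorylates TGFBR1, while TGFBR3, also called betaglycan, presents ligand and is known above all for binding TGF-beta 2. TGFBR1 then phosphorylates SMAD2 and SMAD3, which enter the nucleus with SMAD4 and change transcription. The BRE-GFP reporter reads the BMP branch of the same superfamily, which uses other receptor SMADs but shares SMAD4. TGFBI is a secreted matrix protein named for its induction by TGF-beta.

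Libraries held 3041249 to 21972063 counts in genes, and levels are given as CPM, counts scaled to a common library total with TMM, a factor that balances library composition. The defining markers followed the sort for the most part. The summed CPM of 6 hematopoietic progenitor markers was 861 to 1811 in HPSC, 49.6 to 209 in MC and 166 to 619 in EC libraries, and that of 6 endothelial markers was 297 to 6657, 59.0 to 171 and 387 to 6519 in the same order. The 6 mesenchymal markers summed to 249 to 683 CPM in HPSC, 1913 to 5676 in MC and 739 to 5174 in EC libraries, so EC libraries carried mesenchymal transcripts up to MC levels. EC libraries also carried 8 macrophage markers at 1013 to 6153 CPM and 6 platelet markers at 746 to 3459 CPM. HPSC libraries carried the same macrophage markers at 497 to 5252 CPM. The sum of 5 erythroid markers was 793 to 5461 CPM in HPSC and 158 to 10600 CPM in MC libraries. MC libraries also carried 4 sympathetic neural markers at 112 to 534 CPM. Some libraries stood apart by single genes. In the HPSC cyclopamine BRE-GFP negative library, 346 of 3512 genes with at least 20 CPM in each of the other 17 libraries lay more than 4-fold under the lowest other value (9.85%), Tgfbr1, Tgfbr2 and Smad2 among them. The same count was 153 of 3285 genes in the EC cyclopamine negative library, with Smad4 among them, 106 of 3244 in the MC fresh positive library, 13 of 3109 in the HPSC fresh positive library, with Smad3 among them, and 0 to 9 genes in the other 14. These are also the libraries with the fewest detected genes of their population, apart from the HPSC fresh positive one. Values without them stand beside some of the fold changes and levels that they move.

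Tgfb2 lies on chromosome 1 (GRCm38 chr1:186622792-186705989, minus strand), Tgfb3 on chromosome 12 (chr12:86056745-86079041, minus strand) and Tgfbi on chromosome 13 (chr13:56609523-56639562, plus strand), and these are the 3 genes that passed between HPSC and MC below. The sequence just before the annotated start is shown for Tgfb2 and Tgfbi, from RefSeq on GRCm38.p6, at chr1:186705990-186706239 on the minus strand and chr13:56609336-56609522 on the plus strand. Capitals mark matches, on either strand, to a TATA box (TATAAA), a GC box (GGGCGG) or the short SMAD box (CAGAC, read as GTCTG on the other strand).
Tgfb2: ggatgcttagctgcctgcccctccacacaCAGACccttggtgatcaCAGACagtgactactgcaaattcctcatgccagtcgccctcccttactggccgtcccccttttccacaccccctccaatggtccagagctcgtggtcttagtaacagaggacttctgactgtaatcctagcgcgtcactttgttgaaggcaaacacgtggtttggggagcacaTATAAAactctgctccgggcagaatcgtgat
Tgfbi: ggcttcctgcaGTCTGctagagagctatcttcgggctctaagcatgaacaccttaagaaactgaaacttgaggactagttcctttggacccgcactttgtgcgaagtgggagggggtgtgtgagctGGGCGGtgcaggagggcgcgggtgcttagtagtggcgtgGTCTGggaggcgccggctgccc
In the 250 bases before the RefSeq start, Tgfb2 held 1 TATA box and 2 SMAD boxes, and Tgfbi 1 GC box and 2 SMAD boxes. The Tgfbi matches all lie in the 187 bases printed, which stop where the GENCODE M21 gene begins. Among 32851 promoters of the same table, 12.4% hold the TATA box, 32.7% the GC box and 42.2% the SMAD box in the same 250 bases, and a match describes these letters, not a binding site. Tgfb1 held 5 GC boxes, and 2 further motifs, the AP-1 site (TGANTCA, in 6.75% of promoters) and the cyclic AMP response element (TGACGTCA, in 1.55%), were matched in none of the 7 windows of the 6 members found in the table.

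HPSC cells carried less Tgfb2, Tgfb3 and Tgfbi transcript than MC cells. Tgfb2, Tgfb3 and Tgfbi were lower in HPSC than in MC libraries by 1.70 to 2.97 on the log2 scale, the 3 of 10 members that passed an adjusted p under 0.05 (edgeR quasi-likelihood test over 6 blocks, each matched in culture and reporter fraction). Of all 16231 genes tested, 9.95% passed in this comparison, 4.1% higher and 5.85% lower in HPSC. None of the receptors or SMADs passed. Tgfbr2 was the 1 other member with an unadjusted p under 0.05, a bound that 25.1% of all genes met.

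Tgfb2, the ligand that depends most on betaglycan, had 14.1 CPM in the lowest HPSC library, a median of 41.0 and 63.3 in the highest, against 82.8, 116 and 183 CPM in MC libraries. Every HPSC library was under every MC library, which 4.85% of genes tested also did. The mean was 40.1 ± 20.2 CPM in HPSC and 124 ± 34.6 CPM in MC (SD, n = 6 each). The log2 fold change was -1.70 ± 0.41 (SE; edgeR quasi-likelihood adjusted p = 0.0156), with Tgfb2 lower in HPSC in 6 of 6 blocks. The call was lost without the HPSC cyclopamine positive library (adjusted p = 0.0557) and without the MC fresh negative library (adjusted p = 0.0521).

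Tgfb3, the ligand best known for palate closure, ran from 1.13 CPM through a median of 17.4 to 44.6 CPM in HPSC libraries, and from 70.7 through 165 to 259 CPM in MC libraries. Again no HPSC library reached the lowest MC library. Its mean was 19.98 ± 14.3 CPM in HPSC and 164 ± 69.0 CPM in MC (SD, n = 6 each), and the log2 fold change was -2.97 ± 0.68 (SE; edgeR adjusted p = 0.0105), lower in HPSC in 6 of 6 blocks. Without the HPSC cyclopamine negative library, where Tgfb3 had 3 counts, the call held, as it did without each of the other 17 libraries in turn (adjusted p at most 0.0401).

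Tgfbi had 41.1, 141 and 315 CPM as lowest, median and highest values in HPSC libraries, against 233, 482 and 747 CPM in MC libraries. The groups overlapped: the HPSC explant negative library (315 CPM) lay above the MC fresh positive library (233 CPM). Within blocks Tgfbi was lower in HPSC in 6 of 6, by -1.77 ± 0.39 on the log2 scale (SE; edgeR adjusted p = 0.0077), and the call held without each library in turn (adjusted p at most 0.0316).

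The mesenchymal marker sum moved with these 3 genes: 249 to 683 CPM in HPSC and 1913 to 5676 CPM in MC libraries, with all 6 markers detected in every library. Smooth muscle markers summed to 105 to 307 CPM in HPSC and 487 to 3065 CPM in MC libraries. The part of such cells in the result was not tested, and in sorted bulk RNA fewer cells of a type and less RNA per cell cannot be told apart. The share of reads outside annotated genes was 19.5 to 43.3% in HPSC and 31.2 to 46.8% in MC libraries, and with that share as a covariate none of the 3 genes passed (adjusted p = 0.11 for Tgfb2, 0.182 for Tgfb3 and 0.0787 for Tgfbi, with 518 of all genes called), while the fold changes stayed at -2.04, -3.02 and -2.05.

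On average EC libraries lay between HPSC and MC for these 3 genes. Tgfb2 averaged 66.4 ± 37.9 CPM in EC, Tgfb3 74.1 ± 44.5 CPM and Tgfbi 344 ± 180 CPM (SD, n = 6). In HPSC against EC, 0 of 10 members passed, where 0.32% of all genes did, and 2 had an unadjusted p under 0.05, as 9.32% of all genes had. These were Tgfb3 (log2 fold change -1.71 ± 0.68, adjusted p = 0.425) and Tgfbi (-1.08 ± 0.38, adjusted p = 0.317; edgeR, lower in HPSC in 4 and 5 of 6 blocks). DESeq2 and limma-voom also called 0 members. In MC against EC, 0 of 10 members passed, against 2.54% of all genes. Tgfb2 and Tgfbr2 had an unadjusted p under 0.05, as 11.4% of all genes had. Tgfb2 was at 0.95 ± 0.41 (adjusted p = 0.364) and higher in MC in 6 of 6 blocks, and Tgfb3 was likewise higher in MC in 6 of 6 blocks, with 70.7 to 259 CPM in MC and 11.8 to 123 CPM in EC libraries. Tgfb1 and Tgfbr2 were lower in MC in 6 of 6 blocks. DESeq2 called 0 members there and limma-voom 1, Tgfb3. So neighbouring populations in the order MC, EC, HPSC did not differ past the edgeR threshold for Tgfb2, Tgfb3 and Tgfbi, while the ends of the order did.

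Tgfb1, the ligand most studied in blood and immune cells, was counted at very low levels in all 3 populations. It had 1 to 26 counts in HPSC libraries, 0 to 12 in MC and 1 to 15 in EC libraries. The highest value was 26 counts in the HPSC explant positive library (exact Poisson 95% interval 16.98 to 38.1, counting error only), or 1.735 CPM, and the MC fresh positive library had 0 of 4547062 counts, which allows up to 3. Levels averaged 0.731 ± 0.598 CPM in HPSC, 0.25 ± 0.301 CPM in MC and 0.559 ± 0.412 CPM in EC (SD, n = 6 each), and the ranges overlapped. Tgfb1 passed the filter of 0.796 CPM in 3 libraries only through its highest libraries, and no comparison had an unadjusted p under 0.05. Within blocks it was higher in HPSC than in MC in 6 of 6, and lower in MC than in EC in 6 of 6. HPSC libraries, with macrophage markers at 497 to 5252 CPM and platelet markers at 38.8 to 420 CPM, held no more than 26 counts of Tgfb1. EC libraries, with macrophage markers at 1013 to 6153 CPM and platelet markers at 746 to 3459 CPM, held no more than 15. GENCODE M21 shows no exon of another gene over Tgfb1 (chr7:25687002-25705077, plus strand). The annotation behind the deposited counts is not given in the sources used here, so how reads were assigned to this symbol could not be checked, and the cause of the low counts was not tested.

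Per kilobase of exon, which allows levels of different genes to be set side by side, the 3 ligands summed to 12.97 ± 5.95 CPM per kb in HPSC, 70.1 ± 19.5 in MC and 33.5 ± 15.9 in EC libraries (SD, n = 6 each). HPSC libraries reached 7.97 to 23.6 and MC libraries 52.2 to 101 CPM per kb, with no overlap, as their main ligands had none. Tgfb3 supplied 45.2 ± 22.4% of that sum in HPSC, 67.2 ± 14.4% in MC and 60.3 ± 18.4% in EC libraries, Tgfb2 nearly all the rest, and Tgfb1 at most 2.47% in any library. In fresh tissue Tgfb3 took 39.8 to 62.8% of ligand transcript, and in explants without cyclopamine 44.7 to 77.5%. The 2 extremes were the HPSC cyclopamine negative library, at 2.95% Tgfb3, and the EC cyclopamine negative library, at 86.2%. Without the HPSC one, which had 3 Tgfb3 counts, Tgfb3 supplied 53.7 ± 9.62% in HPSC and Tgfb2 45.2 ± 9.39% (SD, n = 5). With all 6 HPSC libraries Tgfb2 was ahead of Tgfb3, at 53.7 ± 22.5%.

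**Figure D1:**
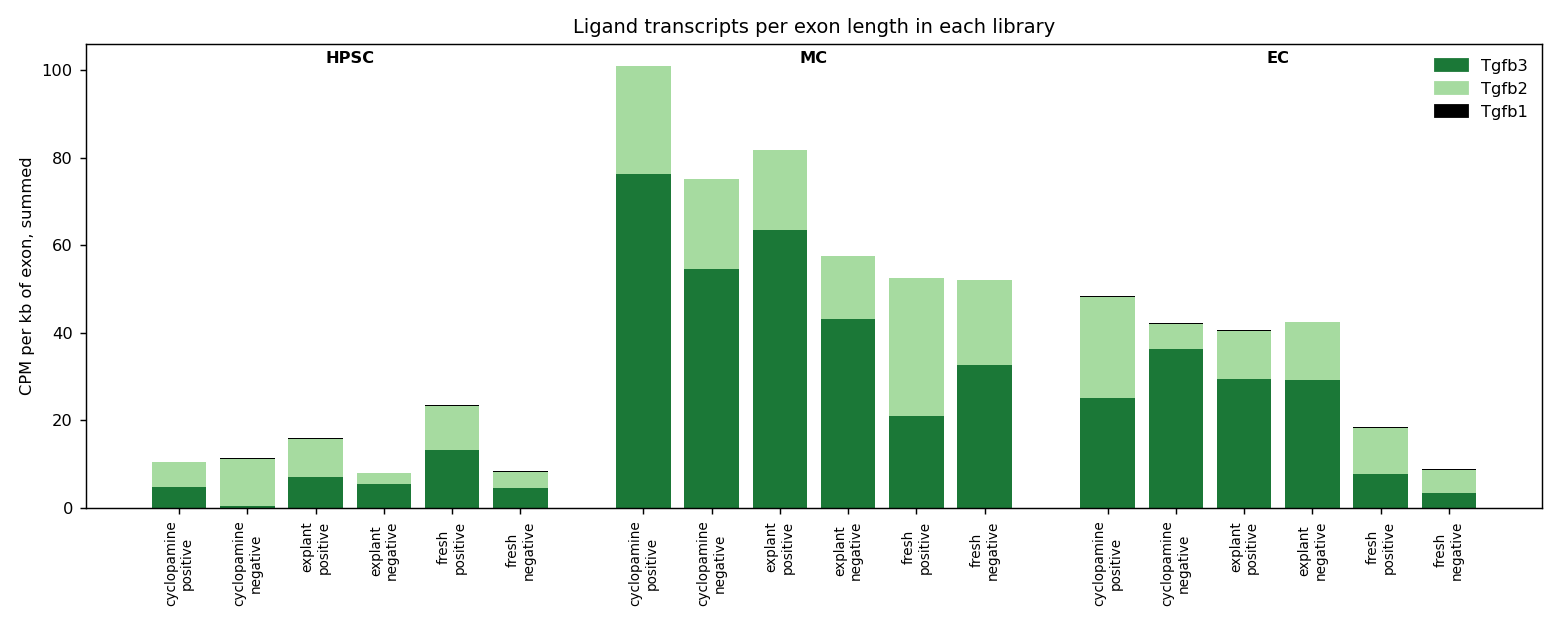
Bars give the summed ligand level of each library in CPM per kb of exon, split into Tgfb3 (dark), Tgfb2 (light) and Tgfb1 (black), with libraries grouped by population and ordered by culture and BRE-GFP fraction. HPSC bars end between 7.97 and 23.6, MC bars between 52.2 and 101 and EC bars between 8.77 and 48.3, and Tgfb1 is barely visible.

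Among the receptors, Tgfbr2 differed most between populations and Tgfbr1 and Tgfbr3 least. Tgfbr2, the receptor that binds active ligand first (chr9:116084293-116175360, minus strand), had 1.51 CPM in the lowest HPSC library, a median of 211 and 416 CPM in the highest, 25.8, 39.5 and 67.0 CPM in MC libraries, and 86.0, 119 and 262 CPM in EC libraries. All EC libraries lay above all MC libraries. HPSC libraries lay above MC in 5 of 6 blocks, the exception being the cyclopamine negative library with 4 counts. In MC against EC the log2 fold change was -1.63 ± 0.66 (SE; edgeR adjusted p = 0.302), lower in MC in 6 of 6 blocks, and 2.3% of all genes were lower in MC with no overlap between groups. In HPSC against MC it was 1.80 ± 0.70 (edgeR adjusted p = 0.116). Both passed without the HPSC cyclopamine negative library: -1.70 ± 0.35 (edgeR adjusted p = 0.0128) for MC against EC and 2.26 ± 0.38 (adjusted p = 0.0017) for HPSC against MC, in fits that called 492 and 1444 of all genes, against 413 and 1615 with all libraries. DESeq2 (adjusted p = 0.0338) and limma-voom (adjusted p = 0.0049) called HPSC against MC with all libraries, where they also called 23.0% and 17.7% of all genes. HPSC and EC libraries, in which Tgfbr2 was high, also carried endothelial markers (297 to 6657 and 387 to 6519 CPM), and MC libraries carried 59.0 to 171 CPM. The part of endothelial transcripts in the Tgfbr2 levels was not tested.

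Tgfbr1, the signalling type I receptor, averaged 141 ± 76.9 CPM in HPSC, 151 ± 59.6 CPM in MC and 157 ± 115 CPM in EC libraries (SD, n = 6 each). These means differ by less than the SD, and the ranges overlap, from 4.15 CPM in the HPSC cyclopamine negative library (11 counts) to 365 CPM in the EC fresh negative library. The HPSC mean of Tgfbr1 was 168 ± 42.3 CPM (SD, n = 5) with that HPSC library left out. Tgfbr3 averaged 66.6 ± 60.8 CPM in HPSC, 41.2 ± 20.03 CPM in MC and 55.7 ± 36.4 CPM in EC, with overlapping ranges. Without the HPSC cyclopamine negative library the Tgfbr3 mean was 43.6 ± 25.8 CPM in HPSC (SD, n = 5), under that in EC. Its highest value, 181 CPM, was in the HPSC cyclopamine negative library and its lowest, 7.59 CPM, in the MC fresh positive library. As shares of receptor transcript per length, Tgfbr2 took 36.6 ± 23.7% in HPSC, 16.0 ± 4.29% in MC and 36.5 ± 13.2% in EC libraries, and Tgfbr1 took 38.4 ± 23.9%, 64.3 ± 14.7% and 44.6 ± 19.2% in the same order. In HPSC without the cyclopamine negative library, Tgfbr2 took 43.8 ± 17.7%, Tgfbr1 45.6 ± 17.96% and Tgfbr3 10.6 ± 4.23%, against a Tgfbr3 share of 25.02% with it.

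The SMAD genes had overlapping levels in the 3 populations, and a few libraries with very low values widened their spread. Smad2 averaged 59.1 ± 38.3 CPM in HPSC, 95.1 ± 20.4 CPM in MC and 91.4 ± 8.29 CPM in EC libraries (SD, n = 6 each). Its EC values lay within 79.3 to 105 CPM, while HPSC values ran from 0.754 CPM (2 counts, cyclopamine negative) to 101 CPM. Leaving out the HPSC cyclopamine negative library gave a Smad2 mean of 70.7 ± 28.5 CPM in HPSC (SD, n = 5). Smad3, the receptor SMAD that binds DNA directly, averaged 60.8 ± 37.9 CPM in HPSC, 88.6 ± 16.5 CPM in MC and 80.4 ± 13.8 CPM in EC. The lowest value was 2.39 CPM (20 counts) in the HPSC fresh positive library, and the other 17 libraries had at least 44.0 CPM. With that library left out, the Smad3 mean in HPSC was 72.5 ± 27.7 CPM (SD, n = 5). Smad4, the shared partner, averaged 53.9 ± 25.8, 51.8 ± 12.6 and 45.3 ± 25.01 CPM in HPSC, MC and EC, with 1.17 CPM (9 counts) in the EC cyclopamine negative library and at least 36.8 CPM in all others. Leaving out that EC library gave a Smad4 mean of 54.1 ± 14.1 CPM in EC. Leaving out the HPSC cyclopamine negative library gave 43.9 ± 8.75 CPM in HPSC (SD, n = 5 each). From highest to lowest, the means were then EC, MC and HPSC. No population comparison of a SMAD gene had an unadjusted p under 0.05. In HPSC against MC the fitted log2 fold changes were -0.88 ± 0.59 for Smad2 (adjusted p = 0.389), -0.68 ± 0.54 for Smad3 (adjusted p = 0.482) and 0.06 ± 0.63 for Smad4 (adjusted p = 0.974; edgeR), whose sign changed under 6 of 25 alternatives (-0.56 to 0.25).

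**Figure D2:**
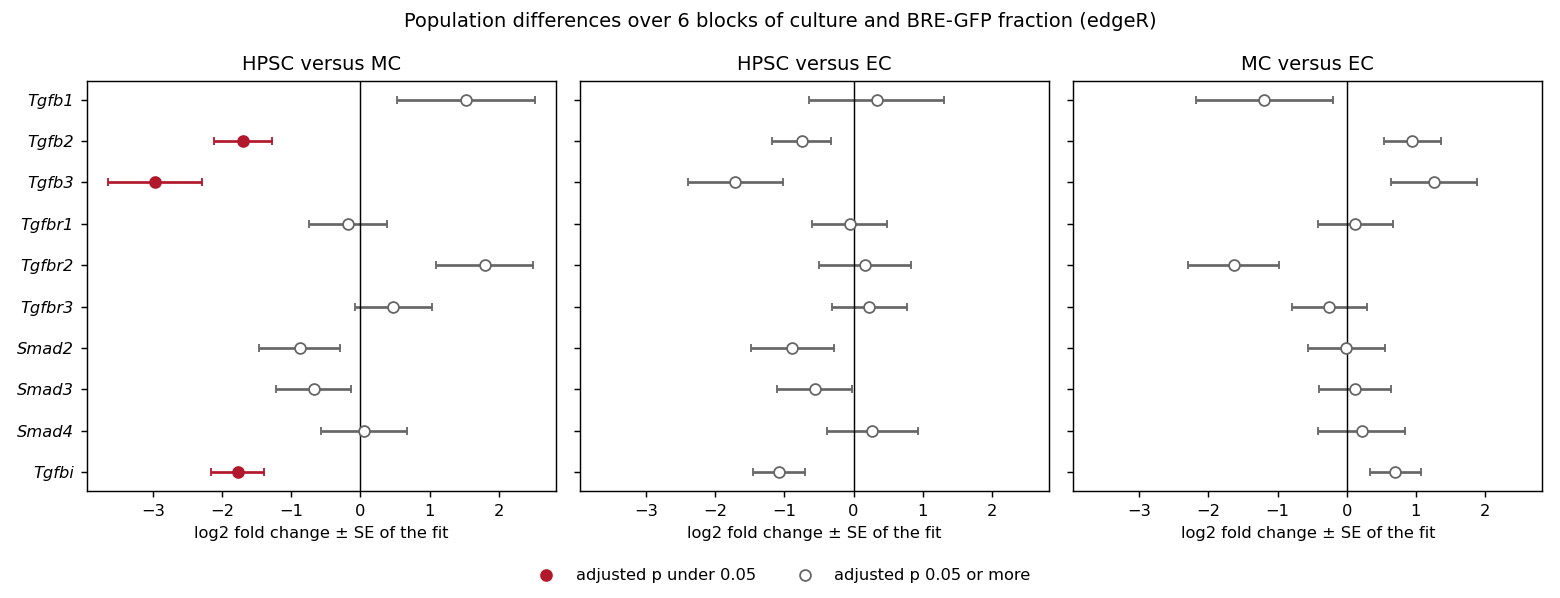
Points give the log2 fold change of each gene in 3 population comparisons (positive values are higher in the population named first), and bars the SE of the edgeR fit over 6 blocks. Filled red points, Tgfb2, Tgfb3 and Tgfbi in HPSC against MC, passed an adjusted p under 0.05, and Tgfbr2 lies at 1.80 in HPSC against MC and at -1.63 in MC against EC.

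The BRE-GFP fractions asked whether cells with an active BMP reporter differ in TGF-beta pathway genes. Over 9 pairs of the same population and culture, 0 of 10 members passed, where 0.0554% of all genes did, and none had an unadjusted p under 0.05, against 5.3% of all genes. DESeq2 and limma-voom called 0 members as well. Tgfb2, Tgfb3 and Tgfbr2 were each higher in the BRE-GFP positive library in 7 of 9 pairs. For Tgfb2 the difference between the positive and the negative library of a pair ran from -0.96 to 1.99 on the log2 scale, and the fitted value was 0.71 ± 0.35 (edgeR adjusted p = 0.98). Tgfb2 had 142, 106 and 183 CPM in MC positive libraries after cyclopamine explant, explant and fresh, against 120, 82.8 and 112 CPM in MC negative libraries, so all 3 MC pairs lay on the same side. The 2 pairs that went the other way were the HPSC cyclopamine pair and the EC explant pair.

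Tgfbr2 showed its widest BRE-GFP difference in HPSC. BRE-GFP positive HPSC libraries had 316, 297 and 416 CPM after cyclopamine explant, explant and fresh, against 1.51, 124 and 55.4 CPM in negative libraries. The value of 1.51 CPM, in the cyclopamine negative library, was 4 counts. The log2 fold change within HPSC was 3.46 ± 0.97 (edgeR adjusted p = 0.354), where 0.037% of all genes passed and 7.6% had an unadjusted p under 0.05. Without the HPSC cyclopamine negative library it was 2.08 ± 0.60 (adjusted p = 0.391), and without the HPSC cyclopamine positive one 2.09. DESeq2 called it (adjusted p = 0.0018, with 6.93% of all genes called), as did edgeR with no filter on low counts (adjusted p = 0.0367, with 0.469% of all genes called). Limma-voom did not (adjusted p = 0.211), nor did edgeR with the no-feature share as a covariate (0.635), with RLE size factors (0.338) or without the 3 libraries of fewest detected genes (0.166). The endothelial marker sum moved the same way, at 2780 to 6657 CPM in HPSC positive and 297 to 1341 CPM in HPSC negative libraries, and its part in the Tgfbr2 difference was not tested. In MC the positive libraries had 67.0, 32.3 and 42.1 CPM of Tgfbr2, against 64.5, 36.8 and 25.8 CPM in negative ones. In EC the values were 86.0, 199 and 262 CPM in positive libraries, against 134, 103 and 103 CPM in negative ones. The BRE-GFP effect on Tgfbr2 in HPSC minus that in MC was 3.27 ± 1.25 (edgeR adjusted p = 0.972), and minus that in EC 2.89 ± 1.26 (adjusted p = 1), so neither difference of effects passed. Both include the library of 4 Tgfbr2 counts, and without the 3 libraries of fewest detected genes they were 2.19 and 0.95. No gene passed in these 2 tests, and 4.04% of all genes in HPSC minus MC and 2.65% in HPSC minus EC had an unadjusted p under 0.05.

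Tgfb3 was also higher in BRE-GFP positive HPSC libraries, with 16.3, 24.2 and 44.6 CPM after cyclopamine explant, explant and fresh, against 1.13, 18.5 and 15.1 CPM in negative libraries. The groups overlapped, since 16.3 CPM lies under 18.5 CPM. The fitted log2 fold change was 1.73 ± 0.68 (edgeR adjusted p = 0.581), and 0.97 without the HPSC cyclopamine negative library. Within MC and within EC, 0 members passed and 0 had an unadjusted p under 0.05 by edgeR, and DESeq2 and limma-voom called 0 there. Of all genes, 0% passed and 0.431% had an unadjusted p under 0.05 in MC, and 0.0123% passed and 4.29% had an unadjusted p under 0.05 in EC. Tgfbi was higher in 3 of 9 pairs and Tgfbr1 in 3 of 9.

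**Figure D3:**
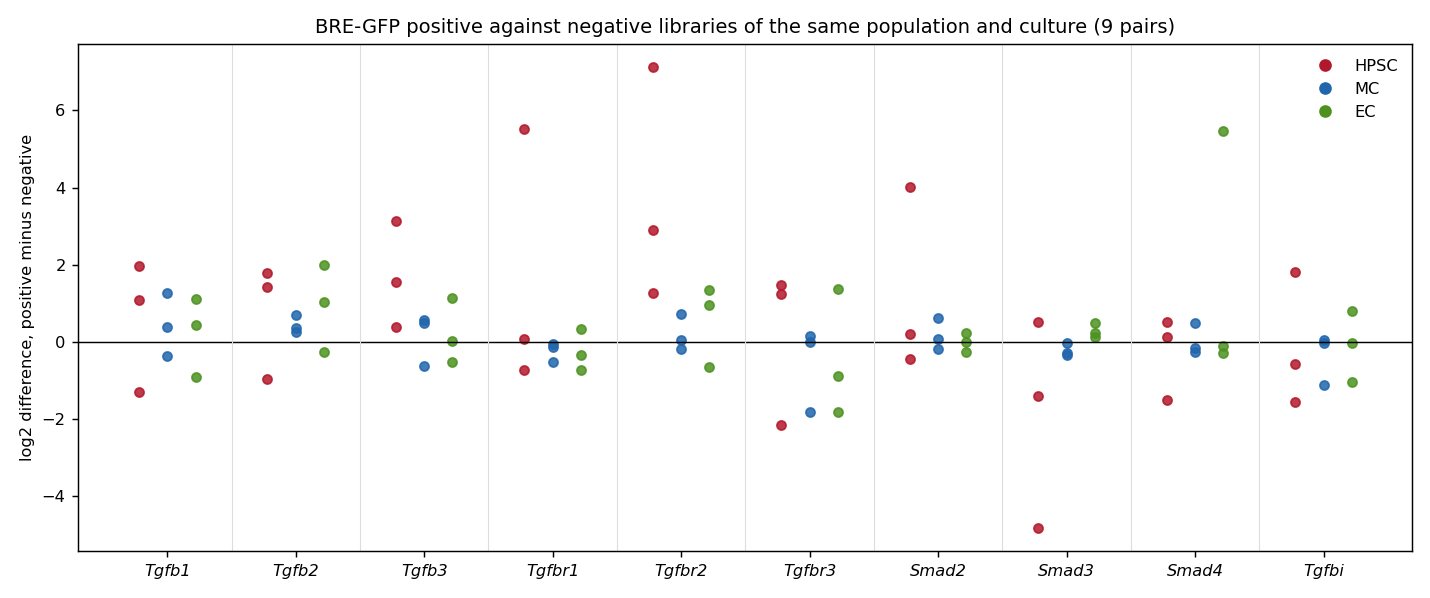
Each point is the log2 CPM (prior count 2) of the BRE-GFP positive library minus that of the negative library of the same population and culture, coloured by population, for each gene. Tgfbr2 points of HPSC lie between 1.26 and 7.13 above 0, and points beyond 4 in either direction belong to pairs that hold a library in which that gene was near 0.

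Culture moved no member past the threshold. Explant against fresh called 0 of 10 members (0.136% of all genes), cyclopamine explant against explant 0 (0% of all genes) and cyclopamine explant against fresh 0 (0.129% of all genes). None of the 10 had an unadjusted p under 0.05 in these 3 comparisons, in which 8.58%, 8.13% and 7.21% of all genes had one, and DESeq2 and limma-voom called 0 in each. Tgfbr1 was lower in explants in 5 of 6 blocks, with 63.2 to 178 CPM in explant libraries, median 93.5, and 161 to 365 CPM, median 203, in fresh libraries. The groups overlapped through the HPSC explant negative library alone, and the log2 fold change was -1.07 ± 0.57 (edgeR adjusted p = 0.658). Tgfb3 was higher in explants in 5 of 6 blocks. Smad3 was lower in 5 of 6, by -0.66 to -0.33 on the log2 scale, and 4.84 higher in the block of the HPSC fresh positive library, where it had 20 counts, so the fitted value was 0.08 ± 0.54 (edgeR adjusted p = 0.992).

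Explant against fresh within 1 population called 0 members as well, by edgeR, DESeq2 and limma-voom. Of all genes, 0% passed in HPSC, 0% in MC and 0.00616% in EC, and 4.31%, 2.48% and 2.3% had an unadjusted p under 0.05. Tgfb3 in EC was the 1 member below that bound. In EC, Tgfb3 had 99.4 and 98.8 CPM in the explant libraries (BRE-GFP positive, then negative), against 26.5 and 11.8 CPM in the fresh ones. With 2 libraries on each side, the log2 fold change was 2.41 ± 0.79 (edgeR adjusted p = 1), and DESeq2 did not call it either (adjusted p = 0.0733). The mesenchymal marker sum of the same libraries was 3124 to 3713 CPM in EC explant and 739 to 1149 CPM in EC fresh libraries, and its part in the Tgfb3 difference was not tested. HPSC libraries had 24.2 and 18.5 CPM of Tgfb3 in explants, against 44.6 and 15.1 CPM when fresh, and the explant effect in HPSC minus that in EC was -2.56 ± 1.08 (edgeR adjusted p = 1). Of all genes, 0% passed and 2.07% had an unadjusted p under 0.05 in that test of the difference, and 1.65% had one in HPSC minus MC, where no member did. MC libraries had 215 and 146 CPM of Tgfb3 in explants, against 70.7 and 111 CPM when fresh.

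With cyclopamine, 0 members passed within any population by edgeR, and 2 had an unadjusted p under 0.05 in HPSC and none in MC or EC. Of all genes, 0% passed in each population, and 5.92% in HPSC, 0.659% in MC and 4.2% in EC had an unadjusted p under 0.05. By DESeq2 1 member passed, and by limma-voom 0. Smad2 had 24.1 and 0.754 CPM in HPSC cyclopamine explants (positive, then negative), against 82.2 and 71.8 CPM in HPSC explants, with a log2 fold change of -3.08 ± 1.01 (edgeR adjusted p = 0.704). It was -1.62 without the HPSC cyclopamine negative library, in which Smad2 had 2 counts, and -6.73 without the positive one, a fit that rests on those 2 counts and called it (adjusted p = 0.0111). In that fit the lone HPSC cyclopamine library is assumed to vary like the other groups, and 612 of all genes were called, against 0 with all libraries. DESeq2 called it with all libraries (adjusted p = 0.0296, with 2.95% of all genes called). The cyclopamine effect on Smad2 in HPSC minus that in EC was -3.14 ± 1.33 (edgeR adjusted p = 1), and minus that in MC -2.88 ± 1.33 (adjusted p = 0.939). Without the 3 libraries of fewest detected genes, that of 2 Smad2 counts among them, these were -1.46 and -1.44. Of all genes, 3.16% and 2.86% had an unadjusted p under 0.05 in these 2 tests and 0% passed. Tgfb3 had 16.3 and 1.13 CPM in HPSC cyclopamine explants, against 24.2 and 18.5 CPM in HPSC explants (log2 fold change -1.97 ± 0.84, edgeR adjusted p = 0.704), and leaving out 1 library gave -3.76 to -0.89, the last without the negative library of 3 counts. In MC, Tgfb3 had 259 and 184 CPM with cyclopamine, against 215 and 146 CPM in explants.

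**Figure D4:**
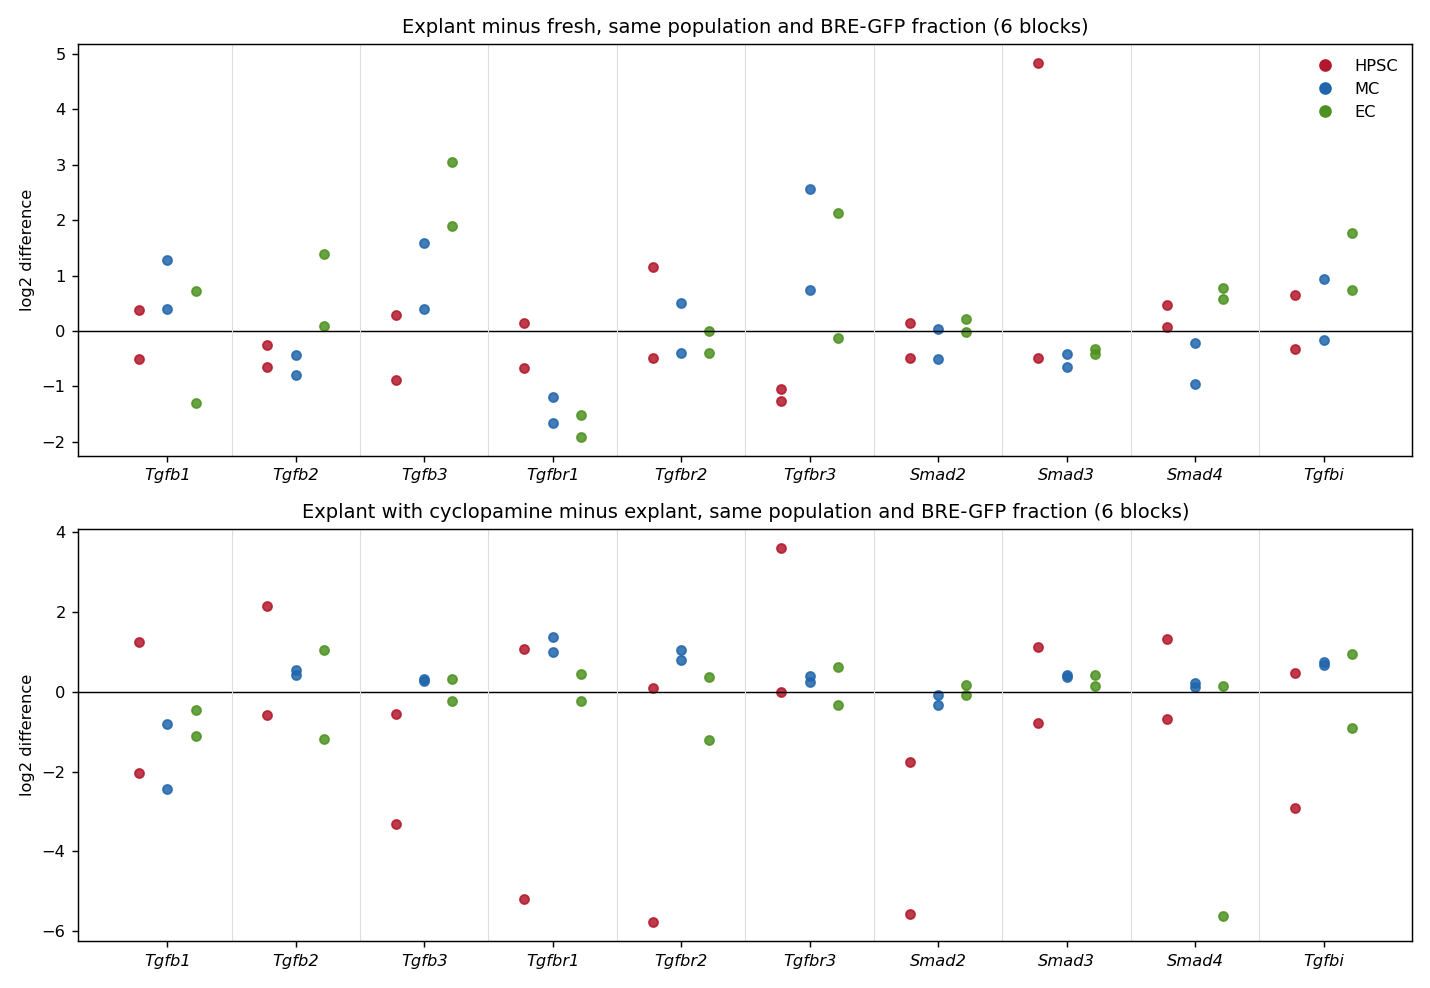
Points give log2 CPM (prior count 2) differences between cultures within the same population and BRE-GFP fraction, explant minus fresh above and cyclopamine explant minus explant below, coloured by population. Tgfbr1 lies below 0 in 5 of 6 blocks in the upper panel, and in the lower panel the points below -5, for Tgfbr1, Tgfbr2 and Smad2 in HPSC and for Smad4 in EC, each come from the cyclopamine negative library.

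Among other genes of the pathway, 5 lists held 12 genes that passed between HPSC and MC, 4 of them in ligand storage, 1 among receptors and 7 among genes induced by TGF-beta, where 9.95% of all genes passed. Of 14 genes of latent TGF-beta storage and activation, 1 was higher and 3 were lower in HPSC, as were 4.1% and 5.85% of all genes (median log2 fold change -1.06, against -0.38 over all genes tested). Lrrc33, which holds latent TGF-beta on myeloid cells, averaged 255 ± 116 CPM in HPSC and 5.88 ± 4.04 CPM in MC (5.57 ± 0.50, edgeR adjusted p = 3e-06), while macrophage markers summed to 497 to 5252 CPM in HPSC and 50.8 to 151 CPM in MC libraries, and their part in it was not tested. The matrix genes Ltbp3 (-3.44 ± 1.04), Ltbp1 (-2.09 ± 0.59) and Fbn1 (-1.76 ± 0.31), which tether latent ligand, were the 3 lower ones (edgeR adjusted p = 0.0459, 0.0338 and 0.0015). Of 6 other type I, type II and accessory receptors of the superfamily, Eng, an endothelial co-receptor, was higher in HPSC at 38.6 ± 36.6 CPM, against 4.90 ± 2.30 CPM in MC (2.35 ± 0.66, edgeR adjusted p = 0.0314), and the other 5 did not pass. Endothelial markers summed to 297 to 6657 CPM in HPSC and 59.0 to 171 CPM in MC libraries, and their part in the Eng level was not tested. None of 10 inhibitors (median log2 fold change -0.49) and none of 10 SMAD partners (median -0.17) passed.

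Of 12 genes known to be induced by TGF-beta, 11 were tested and 7 were lower in HPSC than in MC, with none higher, against 5.85% of all genes lower (median -2.98, against -0.38 over all genes tested). Lox averaged 0.404 ± 0.672 CPM in HPSC and 18.4 ± 8.54 CPM in MC, Cnn1 0.511 ± 0.807 CPM in HPSC and 26.6 ± 28.5 CPM in MC, and Itga11 1.004 ± 1.45 CPM in HPSC and 19.9 ± 8.64 CPM in MC (SD, n = 6 each), so their fitted fold changes rest on HPSC values near 0. The 4 with the largest fitted change were Lox (-6.67 ± 1.16), which cross-links collagen, Cnn1 (-6.52 ± 1.33), a smooth muscle calponin, Itga11 (-5.20 ± 1.39), a collagen-binding integrin, and Postn (-3.39 ± 0.59), a matricellular protein (log2 fold changes ± SE, edgeR adjusted p = 0.0015, 0.0049, 0.0254 and 0.0014). The other 3 were Acta2, Col1a1 and Col1a2. Acta2, Cnn1 and Col1a1, with Tagln of the same list, also stand among the smooth muscle and mesenchymal markers, so their levels cannot be told apart from the share of such cells. In MC against EC, where 2.54% of all genes passed, Acta2 was higher (1.97 ± 0.46, edgeR adjusted p = 0.0249), and Lrrc33 (-4.89 ± 0.49, adjusted p = 1.7e-05) and Eng (-2.53 ± 0.63, adjusted p = 0.0398) were lower in MC. In HPSC against EC, where 0.32% of all genes passed, Lox (-6.21 ± 1.14, edgeR adjusted p = 0.0306) and Col1a1 (-2.92 ± 0.56, adjusted p = 0.0386) were lower in HPSC. In the BRE-GFP and the 3 culture comparisons, 0 genes of these 5 lists passed.

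Genes whose level ran most like a member's across the 18 libraries were sought among 9347 genes by Pearson correlation of log2 CPM. The libraries share sorts, depth and composition, and the values are a description. Tgfb3 ran most like Cpt1c (r = 0.943), the Notch-responsive factor gene Heyl (0.94) and the endothelin receptor gene Ednra (0.936), and these stayed at 0.901 to 0.915 without the HPSC cyclopamine negative library, the lowest for Tgfb3. Ednra also headed the list for Tgfbi (0.941), followed by Fat1 (0.93) and Adam22 (0.923). Ednra averaged 28.8 CPM in HPSC, 299 CPM in MC and 117 CPM in EC libraries, the same order as Tgfb3 and Tgfbi. Tgfb2 ran most like Nt5c3l (0.883), Id3 (0.877), a helix-loop-helix inhibitor gene that BMP induces, and Nell2 (0.876). Tgfbr2 ran most like Itsn2 (0.95), Plekha1 (0.941) and Stim2 (0.933), at 0.863 to 0.89 without its lowest library. Tgfb1 ran most like the actin nucleation gene Arpc3 (0.866), Cr1l (0.853) and Pon3 (0.804). At the levels of Tgfb1 a few counts and the library depth set its value. Tgfbr3 ran most like Maoa (0.849), Eif4enif1 (0.83) and Mterfd1 (0.828). For Smad2 they were Tmem127, Caml and Asb8, for Smad3 S1pr2, Gpatch1 and Zfp64, for Smad4 Dcaf17, Ppp2r2d and Mnt, and for Tgfbr1 Zmiz2, Prkaca and Zmiz1. The nearest genes of Smad2, Smad3, Smad4 and Tgfbr1 had r of 0.921 to 0.977, and 0.184 to 0.832 without the 1 library in which the member was near 0, so those likenesses rest largely on single libraries.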

How the data were processed

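RNA-seq libraries were made from sorted AGM cells with the mirVana kit and a SMARTer protocol, per the labels. The deposited tables hold whole-number read counts per gene symbol, 1 table per library, with no normalization. TopHat, Cufflinks, HTSeq and mm10 are named, per the submitters' processing notes, where versions, gene annotation and strandedness are not stated (not given in the sources used here). Tgfb2 and Tgfb3 share 124 to 257 exon bases with each of 3 unlisted opposite-strand transcripts, which matters if strand was not used, and Tgfbr3 shares 297 with an unlisted same-strand one, which strand cannot separate. Summary lines of the counter (no feature: 19.5 to 49.4% of reads) entered neither library totals nor tests.

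Groups came from the titles. Counts were tested with edgeR 4.0.16 (R 4.3.3): its quasi-likelihood test with TMM factors, and p-values adjusted by Benjamini-Hochberg over the 16231 genes reaching 0.796 CPM (10 counts in a library of median depth) in 3 or more libraries. Populations were compared within 6 blocks of culture and fraction, fractions within 9 pairs, cultures within 6 blocks, all on 18 libraries, with 10, 8 and 10 residual degrees of freedom, and 6 within populations. With 1 library per combination, p-values rest on variation between blocks. Alternatives used DESeq2 1.42.0 and limma 3.58.1 (voom). The fit was tested on simulated data for HPSC against MC. Apart from the changed genes, the simulated libraries shared the same mean profile, with no differences between blocks. No library was simulated with many genes near 0, so the setting was simpler than the data. There the fit recovered 36% of changes of 2 on the log2 scale and 82% of changes of 4, and called 0.0312% of unchanged genes. A member that did not pass is therefore not shown to be unchanged. Levels per length used the union of GENCODE M21 exons on GRCm38. Members are named in every comparison, fold changes where the unadjusted p was under 0.05 or a direction is described, list genes by adjusted p and size (at most 4 each way), and like genes as the 3 of highest correlation with a mean of at least 10 CPM, predicted genes left out. Members and lists were chosen with earlier results of these data known.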

Additional observations from a re-analysis of the deposited data

Results flagged for a closer look

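In 80 groups of 6 or 9 libraries (each member by population, culture or fraction), 8 had a library whose gap to its nearest neighbour was wide for the group's range by Dixon's test, which chance gives in about 1 of 20 groups. Low counts underlay 4 of them: Smad2 at 0.754 CPM in the HPSC cyclopamine negative library (next lowest of the negative libraries 71.8), Smad3 at 2.39 CPM in the HPSC fresh positive library (next lowest fresh library 74.6), and Tgfb1, whose highest MC value of 0.834 CPM (explant positive, next 0.272) and highest negative-fraction value of 1.09 CPM (EC fresh negative, next 0.484) each rest on at most 12 counts. The other 4 were high values, with Smad4 at 104 CPM in the HPSC cyclopamine negative library (next HPSC library 59.1), Smad2 at 135 CPM in the MC fresh positive library (next MC library 95.6), Tgfbr1 at 365 CPM in the EC fresh negative library (next fresh library 220) and Tgfbi at 508 CPM in the MC fresh negative library (next fresh library 233). In 3 of the 8, the library is one of the 3 with the fewest detected genes of its population. The causes were not tested.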

How the results depend on the processing

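The labels give no replicate numbers to block by. Libraries were matched on population, culture and fraction instead, as in the 9 fraction pairs. The count of members called in HPSC against MC was 3 to 4 under other scaling, filter, tool and design and without the 3 libraries of fewest detected genes (an alternative chosen after seeing the data), 0 with the share of reads at no feature as a covariate, and 2 to 4 leaving out 1 library. Of all genes, 9.95% were called there, but 23.0% by DESeq2, 17.7% by limma-voom and 3.19% with that covariate; in HPSC against EC 0.32%, but 5.2%, 1.4% and 0.0308%; and in MC against EC 2.54%, but 8.09% and 4.81% by the first 2. In MC against EC the count of members was 1 by limma-voom and 1 without those 3 libraries, and 0 to 1 leaving out 1 library. Within populations, BRE-GFP calls were 1 by DESeq2 and 1 with no filter, and culture calls 1 by DESeq2 and 0 to 3 leaving out 1 library; tests of differences between populations gave 0 to 6, the 6 without the HPSC cyclopamine positive library, a fit that leaves 1 HPSC cyclopamine library with near-zero members, and 3 of the culture calls came from the same fit. It called 612 of all genes for cyclopamine in HPSC, and 346 (HPSC minus EC) and 394 (HPSC minus MC) for the differences, each 0 with all libraries. Without the EC cyclopamine positive library there was 1 culture call, with 185 of all genes called. The other 5 comparisons called 0 members under each alternative, and no member's fold change with an unadjusted p under 0.05 changed sign. Tgfb1 per length was 0.284 CPM per kb in HPSC and 0.217 in EC by its longest transcript, against 0.145 and 0.111 by all exons. Depth of 3041249 counts in the shallowest library limits low members, Tgfb1 above all.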

Other observations

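Of the variance of log2 CPM over the 18 libraries, population took 59.4% for Tgfb3, 55.4% for Tgfb2, 52.7% for Tgfbi and 36.3% for Tgfb1, and 4.29 to 22.9% for the receptors and SMADs, where the median of all tested genes was 15.2%. The BRE-GFP fraction took 19.4% for Tgfbr2 and 12.9% for Tgfb2, against a median of 3.01%. These shares are a description, and those of Tgfb3, Tgfbr1, Tgfbr2 and Smad2 include the HPSC cyclopamine negative library, where these genes had 2 to 11 counts. Those of Smad3 and Smad4 include the HPSC fresh positive library (20 Smad3 counts) and the EC cyclopamine negative library (9 Smad4 counts). The share of Tgfb1, with 0 to 26 counts per library, also carries library depth, because a prior count of 2 was added whatever the depth.

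Tgfb3 and Tgfbi ran together across libraries (Pearson r = 0.875 over 18 libraries, 0.794 without the HPSC cyclopamine negative one). Tgfb2 and Tgfb3 had r = 0.575 with that library and 0.754 without it. Tgfbr1 and Smad2 had r = 0.764 with it and -0.303 without it, and Tgfbr2 and Tgfbi 0.093 with it and -0.666 without it. Libraries share sorts and composition, and no test was made.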
